A study of Rattus norvegicus with 11 samples.

Results

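Partial bladder outlet obstruction (PBOO) changed the bladder transcriptome differently at week 4 and at week 5, and the change of its effect between the weeks is described here gene by gene. The effect of a week was the mean of the obstructed samples minus the mean of the normal samples of that week, on the scale log2(FPKM + 0.1), where FPKM is the number of fragments assigned to a gene, scaled to its length and to the size of the library. The difference between weeks was the effect at week 5 minus the effect at week 4, over all 11 samples. The deposited table lists 18507 genes. Both weeks had a value above 0 for 13233 of them, and the 11296 that also averaged 0.5 FPKM or more across all samples were tested. A gene was called at an adjusted p under 0.05 (limma, Benjamini-Hochberg) with at least a 2-fold change. The calls sort the genes into classes. A gene kept its change when both weekly effects were called with the same sign, and reversed it when both and the difference were called and the signs were opposite. A gene lost its change when the week 4 effect and an opposite difference were called but the week 5 effect was not, and gained one when the week 5 effect and a difference of the same sign were called but the week 4 effect was not. A gene called in 1 week without a called difference was counted as unresolved.

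The samples were RNA from whole bladder tissue of Sprague-Dawley rats. In the study's methods the rats were adult females, with the age given only roughly. PBOO was made with a suture tied around the bladder neck and urethra over a tube that was then withdrawn, and the controls, labelled normal, had only the abdominal incision. Week 4 had 3 normal and 3 PBOO samples, and week 5 had 3 normal and 2 PBOO samples, because a further PBOO sample of week 5 failed quality control during library construction. No sample is shared between the weeks. Each sample was taken as a separate biological replicate, as in the study, although the labels do not name the animals. The columns of the week 5 normal samples are named as adult samples in the table.

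The wall of the bladder holds the detrusor, layers of smooth muscle in a matrix of collagen and elastic fibres, and an inner lining, the urothelium. When the outlet is narrowed, the detrusor works against a higher pressure, and its muscle cells are known to enlarge and the matrix to remodel before contraction fails. Smooth muscle cells keep their contractile genes active through serum response factor, which binds a sequence called the CArG box. Epithelial and immune cells respond to damage or infection through NF-kB, which drives chemokines, and through interferons, which drive antiviral and antigen-presenting genes.

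The samples of the weeks differed beyond the obstruction. The FPKM of a sample summed to between 510270 and 564343 at week 4 and between 424961 and 469671 at week 5, and 4871 genes were listed at 0 in every week 4 sample against 403 in every week 5 sample. Any difference in sequencing or quantification between the weeks cannot be told apart from the week itself, while each weekly effect was taken within its week. The 10 highest genes took 9.35% to 9.73% of the sum in the normal and 13.7% to 20.0% in the PBOO samples of week 4. At week 5 they took 9.46% to 10.4% in the normal and 7.72% to 8.35% in the PBOO samples. The median effect over all genes tested was -0.25 at week 4 and 0.10 at week 5, and the median difference was 0.35. Scaling the samples by median ratios moved these medians to -0.02, 0.06 and 0.07, so values near these shifts are given no direction below. The number of reads behind a value is unknown, since the table holds no counts.

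PBOO changed few genes at week 4 and many at week 5, and few of the genes that rose at week 4 were still up at week 5. At week 4, 233 genes were called (2.06% of those tested), of which 136 rose (1.2%) and 97 fell (0.859%). At week 5, 2413 genes were called (21.4%), of which 977 rose (8.65%) and 1436 fell (12.7%). The difference between weeks was called for 3073 genes (27.2%), upward for 1759 (15.6%) and downward for 1314 (11.6%). With median-ratio scaling the split was 1031 upward and 1562 downward, so the share of upward calls went from 57.2% to 39.8%. The same scaling left the week 4 rises at 137 but took the falls from 97 to 17, so that the classes that start from a fall at week 4 rest on how the samples are scaled. Of the 136 genes that had risen at week 4, 90 reversed, 33 lost the rise, 3 kept it and 10 were unresolved. Of the 97 that had fallen, 36 kept the fall, 31 lost it, 14 reversed and 16 were unresolved. The week 5 effect was below 0 for 120 of the 136 risen genes (88.2%, against 43.4% of all genes tested) and above 0 for 42 of the 97 fallen genes (43.3%, against 56.6% of all). A further 1826 genes gained a change at week 5, 793 of them upward and 1033 downward, and 691 and 630 of these had a week 4 effect of the opposite sign. The difference alone was called for 1060 genes, 919 upward and 141 downward. Over the 11296 genes the effects of the weeks had a Pearson r of -0.128 and a Spearman rho of -0.206; the genes share their samples and this is a description only.

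**Figure D1:**
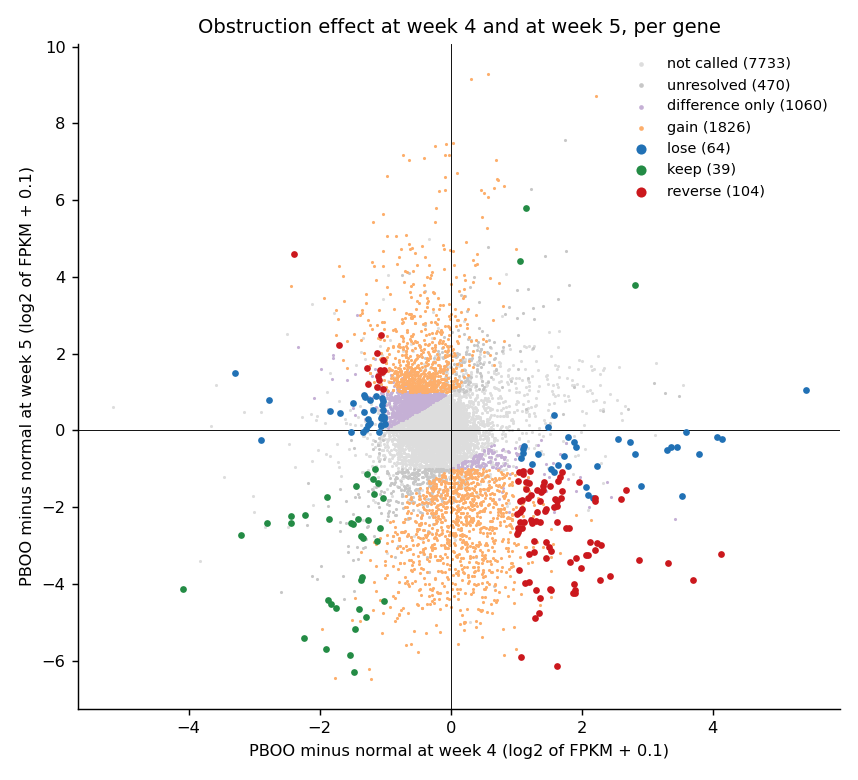
Effect of PBOO at week 4 (horizontal axis) and at week 5 (vertical axis) for each of the 11296 genes tested, on the log2(FPKM + 0.1) scale, coloured by class with the number of genes in brackets. The 104 reversing genes lie mostly in the lower right part (90 genes that rose at week 4 and fell at week 5), and the 39 keeping genes mostly in the lower left (36).

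The classes that need a call at week 4 changed in size when single samples were left out. The smallest adjusted p at week 4 was 0.0209, against 7.56e-08 at week 5. Without any 1 of 4 samples (normal week 4 replicate 2 or 3, PBOO week 4 replicate 2 or 3) the week 4 calls dropped to between 0 and 17, and the 104 reversing genes to between 0 and 9. Without normal week 4 replicate 1 they dropped to 26 and 19. Without PBOO week 4 replicate 1 they rose to 724 and 261. The week 5 normal samples entered the shared estimate of the spread too: without replicate 1 of them 42 genes reversed, and without replicate 3, 60. Without replicate 2 of them 22 genes kept and 32 lost their change. Without PBOO week 5 replicate 1, 65 genes kept it. At an unadjusted p under 0.05, 83 to 104 of the 104 genes still met all the rules for reversal without any 1 week 4 or normal week 5 sample. The 104 genes were picked at a stricter threshold in these same samples. A high count was therefore likely beforehand, and it does not show that the reversals are independent of single samples. The gained changes numbered 1615 to 2128 and the called differences 2681 to 3458 without any 1 sample.

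**Figure D2:**
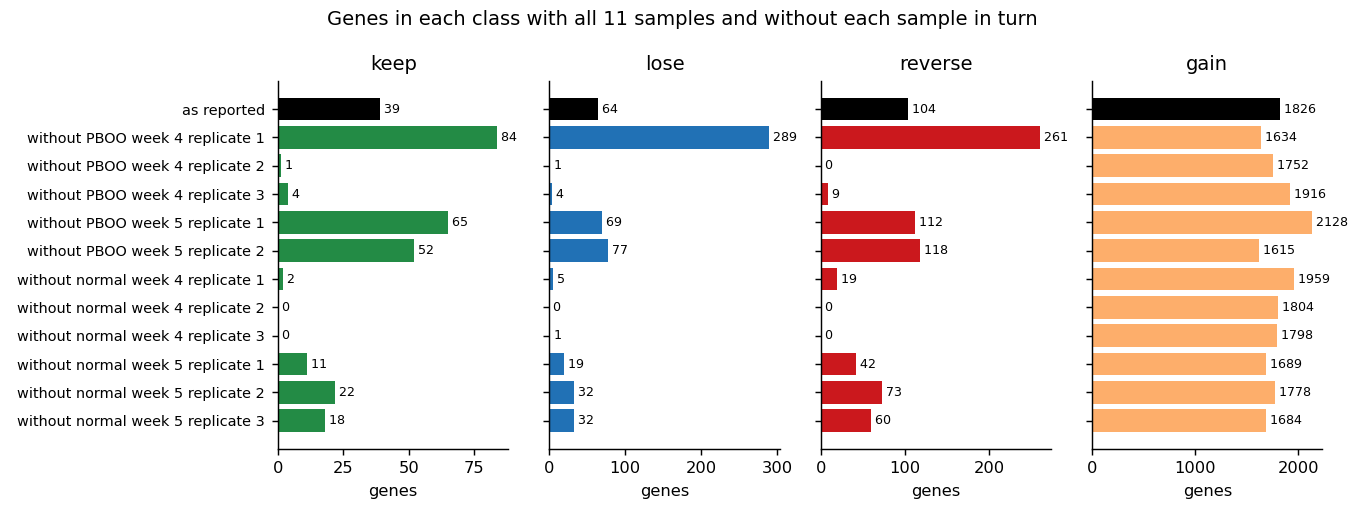
Number of genes (horizontal axes, starting at 0) in each class with all 11 samples (black bar) and without each sample in turn (coloured bars). Keeping, losing and reversing genes range from 0 to 84, 289 and 261, and gaining genes from 1615 to 2128.

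Marker genes of the cell types of the bladder were read in the same samples. The summed FPKM of 8 smooth muscle markers was 14212 to 16699 in the normal and 35248 to 61827 in the PBOO samples of week 4. At week 5 it was 17139 to 18850 in the normal and 713 to 1244 in the PBOO samples. None of the 8 was at 0 in a whole group, and the difference between weeks was called downward for all 8. The 8 fibroblast markers summed to 1088 to 4125 and 3850 to 4540 in the normal and PBOO samples of week 4, and to 1521 to 1939 and 122 to 173 at week 5. Urothelial markers summed to 4914 to 6037 and 2914 to 3667 at week 4, and 6038 to 7376 and 6381 to 7068 at week 5. The urothelial sum of the PBOO samples was thus below normal at week 4 and within the normal range at week 5. Of the week 5 sums, Krt5 held 779.7 and 2859 FPKM in the PBOO and 182, 124 and 97.4 FPKM in the normal samples. Of the 7 tested markers 1 rose and 3 fell at week 5, with a median effect of -0.76. The sum therefore does not show that the markers were at a normal level. In bulk tissue, fewer cells of a type and less RNA per cell cannot be told apart, and the part of the bladder wall that entered each sample is not given. The part of these marker shifts in the results below was not tested.

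Markers of blood and other cells moved less evenly. Neutrophil markers summed to 30.8 and 536.6 in the PBOO samples of week 5, against 2.47 to 6.91 in the normal samples, 4.76 to 81.3 in the normal samples of week 4 and 10.9 to 35.6 in the PBOO samples of week 4, where 2 of the 8 genes were at 0 throughout. Macrophage markers summed to 255.1 to 699 in the PBOO and 34.9 to 88.8 in the normal samples of week 5, and to 350.8 to 556.8 and 74.3 to 480.02 at week 4. T cell markers summed to 24.0 to 84.4 and 13.98 to 22.2 at week 5 and to 41.4 to 50.5 and 16.9 to 60.4 at week 4, and B cell markers to no more than 11.2 in any sample. Nerve and glia markers summed to 2.78 to 6.69 in the PBOO samples of week 5 against 25.9 to 45.2 in the normal samples. Endothelial markers summed to 154.4 to 198.1 in the normal and 139.9 to 148.6 in the PBOO samples of week 4. At week 5 they summed to 46.9 to 87.5 and 78.6 to 106.4, so the normal samples also differed between the weeks. Adipocyte markers summed to between 388.3 and 1245. Erythroid markers summed to between 24.99 and 499.02, with the lowest sum in normal week 4 replicate 1. Mast cell markers summed to 8.01 to 35.7 in the normal and 47.1 to 66.8 in the PBOO samples of week 4. At week 5 they summed to 1.59 to 3.10 in the normal and 3.16 to 3.91 in the PBOO samples, low in both groups. Of the 8 genes 4 were at 0 in both PBOO samples of week 5. Normal week 4 replicate 1 stood apart in its group, with the lowest fibroblast, macrophage, neutrophil and T cell sums. PBOO week 5 replicate 2 was the higher of its pair in the same 4 sums. The part of these shifts in the defence, chemokine, interferon, antigen-presentation and nerve genes below was not tested.

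**Figure D3:**
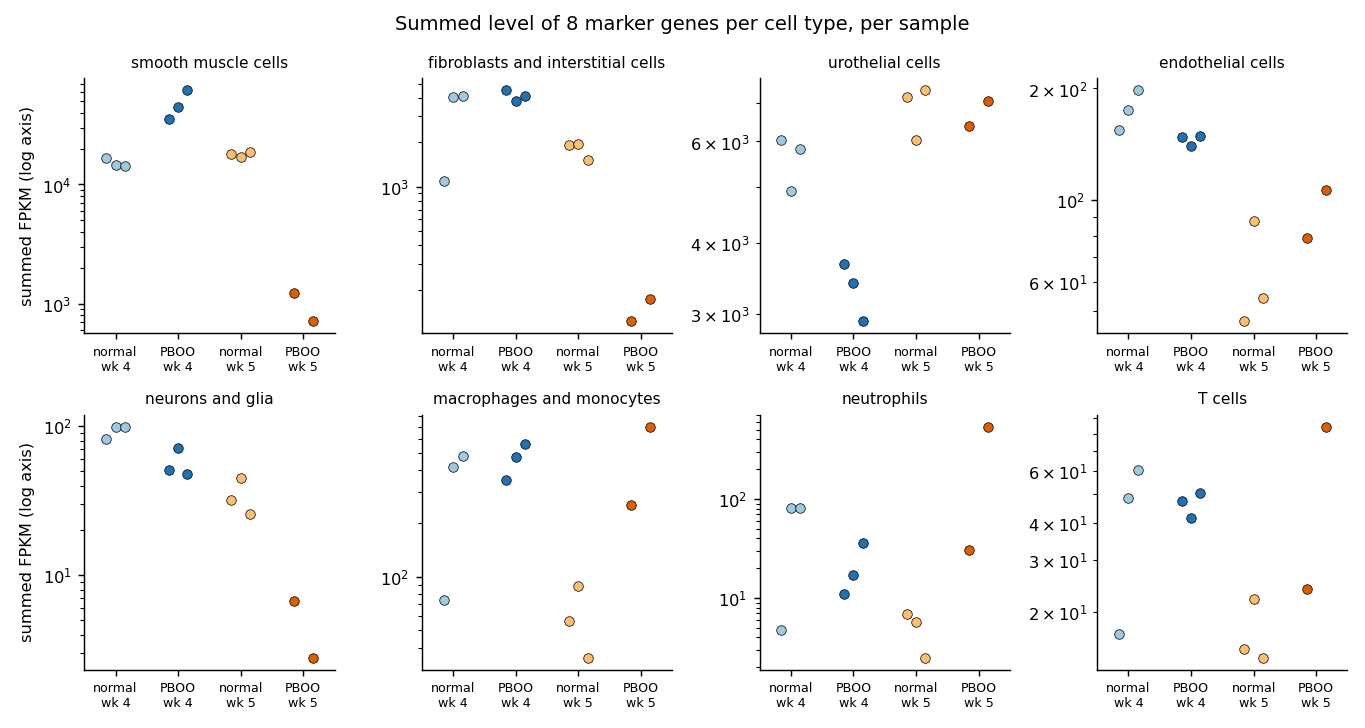
Summed FPKM (vertical axes, log scale) of 8 marker genes for each of 8 cell types in each of the 11 samples, one point per sample. Smooth muscle and fibroblast sums are lowest in both PBOO samples of week 5. The urothelial sums of these 2 samples lie among those of the normal samples, with the marker Krt5 above normal in both.

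Contractile genes rose or were not called at week 4, and nearly all fell at week 5. Of 33 tested genes of the contractile apparatus, 8 rose at week 4 and none fell, while at week 5 none rose and 30 fell, and the difference was called downward for 30. The median effect of the list was 0.60 at week 4 and -3.86 at week 5, and the median difference was -4.53, beside -0.25, 0.10 and 0.35 over all genes tested. Medians of the other lists are given in this order. With median-ratio scaling 13 rose at week 4 and all 13 reversed. The 8 that rose were the 8 that reversed (Actg2, Actc1, Cnn1, Cald1, Des, Synm, Pgm5 and Flnc, of which all but Actc1 and Synm are named after their values were seen). Actc1 encodes cardiac muscle alpha-actin, which is also made in other muscle. Its level was 54.2, 65.6 and 59.6 FPKM in the normal and 413, 1213 and 2243 FPKM in the PBOO samples of week 4, and 70.5, 51.6 and 34.2 FPKM in the normal and 10.7 and 2.51 FPKM in the PBOO samples of week 5. All 3 obstructed samples were above all normal samples at week 4 and both were below them at week 5. Such a separation in each called week was a condition for naming Actc1 and the genes below by the rule, so it adds no support. On the log2 scale the effect was 4.12 ± 0.62 at week 4 (adjusted p = 0.0209) and -3.23 ± 0.69 at week 5 (adjusted p = 0.00486), a difference of -7.35 ± 0.93 (adjusted p = 0.000292). Muscle actin genes have near-identical coding sequences, and how shared reads were counted is not given.

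Synm, which encodes the intermediate filament protein synemin, had a smaller rise and a deeper fall. It was at 157, 178 and 161 FPKM in the normal and 331, 407 and 311 FPKM in the PBOO samples of week 4, then at 200.2, 205 and 105 FPKM in the normal and 3.15 and 2.17 FPKM in the PBOO samples of week 5. The groups did not overlap in either week. Its effect was 1.07 ± 0.25 at week 4 and -5.90 ± 0.28 at week 5, and the difference was -6.98 ± 0.37 (adjusted p = 2.08e-06). Synpo2, an actin-binding protein of muscle, lay above normal at week 4 without being called and so counts among the gained falls. Its effect was 0.99 ± 0.28 at week 4 (adjusted p = 0.0532) and -5.70 ± 0.31 at week 5, where it was at 6.53 and 2.86 FPKM in the PBOO and 179, 238.1 and 285 FPKM in the normal samples. Altogether 22 contractile genes gained a fall, and Myl6, Tpm3 and Tpm4, light chain and tropomyosin genes that are also used outside muscle, were not called in either week or in the difference (named after their values were seen).

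**Figure D4:**
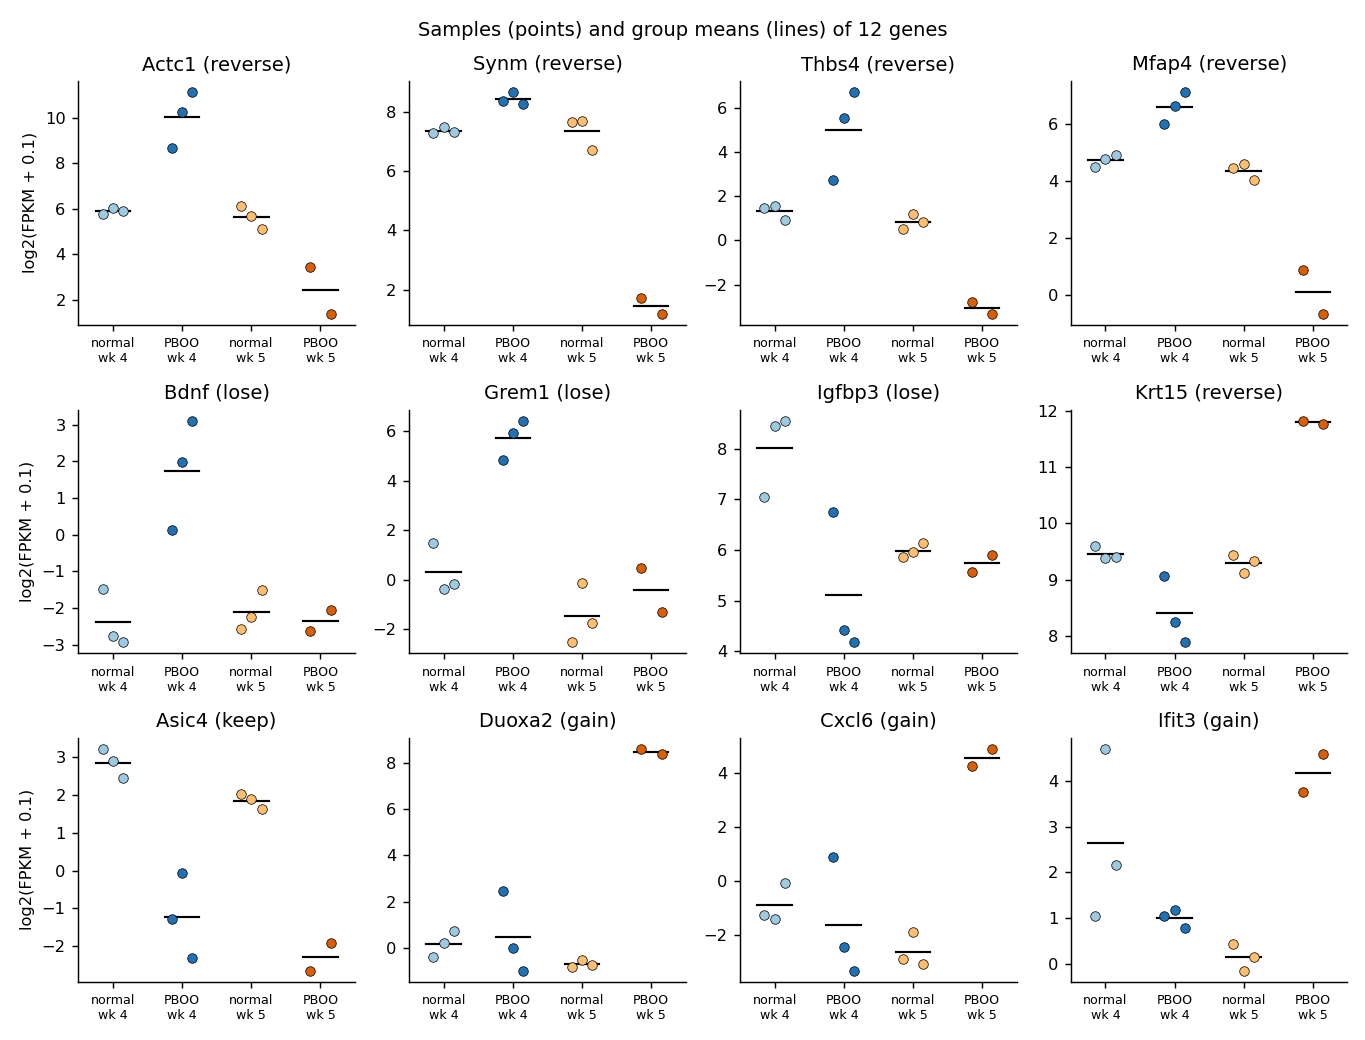
Level of 12 genes in each sample (points) with the group means (lines), as log2(FPKM + 0.1), in normal and PBOO bladders of week 4 and week 5. Actc1, Synm, Thbs4 and Mfap4 are above normal at week 4 and below it at week 5, Krt15 runs the other way, Bdnf, Grem1 and Igfbp3 stand apart from normal at week 4 only, Asic4 is low in both weeks, and Duoxa2, Cxcl6 and Ifit3 are above their normal samples at week 5.

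Promoters of the reversing genes were searched for the CArG box on both strands, from 250 bases before to 50 after the RefSeq start (build GRCr8), using genes with a single listed start. Among 63 matched genes that rose and then fell, 3 held one (4.76%), against 104 of 8528 tested genes (1.22%) and 1.65% of all 24206 such promoters. The 3 genes were Actc1, Acta1 (skeletal muscle alpha-actin) and Rnd3 (a small GTPase that acts on actin fibres). In Actc1 the box lay past the start. The windows before the start of the other two genes are shown because they carry the motif of muscle gene control, with the CArG box in capitals. They lie at chr19:68784254-68784313 and chr3:55998606-55998665, both on the minus strand, and read 5′ to 3′ toward the gene.
Acta1: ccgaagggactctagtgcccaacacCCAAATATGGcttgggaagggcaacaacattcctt
Rnd3: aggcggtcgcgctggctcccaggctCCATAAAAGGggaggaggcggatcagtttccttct
Acta1 had an effect of 2.88 ± 0.63 (SE) at week 4 and -3.37 ± 0.71 at week 5, and Rnd3 of 1.58 ± 0.36 and -1.996 ± 0.40 (both named after their values were seen). A match describes these letters only and was not tested for binding. Acta1 is also a skeletal muscle marker, and the 8 markers of that tissue summed to 197 to 341 FPKM in the normal and 378 to 3106 FPKM in the PBOO samples of week 4, and to 223 to 255 and 111 to 114 FPKM at week 5. The part of skeletal muscle in the actin values was not tested.

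Nptx2, a neuronal pentraxin that is secreted at synapses, reversed in the same way outside the muscle lists. It was at 2.91, 1.23 and 2.27 FPKM in the normal and 10.1, 27.9 and 32.8 FPKM in the PBOO samples of week 4, and at 4.31, 2.23 and 6.07 (normal) and 0.243 and 0.281 FPKM (PBOO) at week 5. The groups did not overlap in either week, and the difference was -6.78 ± 0.74 (adjusted p = 0.000116).

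Channels and receptors through which the detrusor is excited mostly fell at week 5 without having risen. Of 31 tested genes, 2 rose and 2 fell at week 4, and none rose and 24 fell at week 5. The difference was called downward for 24. The medians were 0.00 at week 4, -2.92 at week 5 and -2.79 for the difference. The 2 that rose both reversed: Cacna2d1, an auxiliary subunit of voltage-gated calcium channels, and Casq2, calsequestrin, which binds calcium in the sarcoplasmic reticulum. Cacna2d1 was at 16.7, 28.2 and 20.4 FPKM in the normal and 90.2, 89.2 and 117 FPKM in the PBOO samples of week 4, against 9.37, 10.7 and 2.996 (normal) and 0.826 and 0.560 FPKM (PBOO) at week 5. Casq2 was at 18.3, 16.8 and 19.9 (normal) and 40.3, 58.5 and 116 FPKM (PBOO) at week 4, against 19.7, 19.8 and 18.4 (normal) and 2.001 and 1.42 FPKM (PBOO) at week 5. For both genes the PBOO samples were all above normal at week 4 and all below it at week 5. Their differences were -5.32 ± 0.62 and -5.26 ± 0.46 (adjusted p = 0.000178 and 2.61e-05).

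P2rx1 encodes the ATP-gated channel that takes the parasympathetic signal in the detrusor. It was not called at week 4, with 385, 515 and 508 FPKM in the normal and 613, 813 and 937 FPKM in the PBOO samples (adjusted p = 0.0579), and at week 5 it stood at 498, 488 and 661 (normal) and 35.6 and 23.7 FPKM (PBOO), an effect of -4.22 ± 0.24. Adrb3 and Tacr2, a relaxing adrenergic and a contracting tachykinin receptor, were the 2 genes of the list that fell at week 4, and both kept the fall (named after their values were seen). With median-ratio scaling neither fall was called at week 4. Outside the list, Kcnf1, a subunit of voltage-gated potassium channels, had the lowest difference among the reversing genes the naming rule admits. Its level was 9.69, 4.22 and 3.89 FPKM in the normal and 19.7, 20.2 and 12.0015 FPKM in the PBOO samples of week 4, and 21.0, 12.1 and 21.8 (normal) and 0.232 and 0.0913 FPKM (PBOO) at week 5. The PBOO samples were all above normal at week 4 and all below it at week 5. That is an effect of 1.62 ± 0.39 followed by -6.14 ± 0.44, a difference of -7.76 ± 0.59 (adjusted p = 1.08e-05).

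Many matrix genes rose at week 4, and most fell at week 5. Among 34 tested matrix glycoprotein and elastic fibre genes, 14 rose and none fell at week 4, and none rose and 27 fell at week 5. The difference was called downward for 30, with 10 reversing, 2 losing and 17 gaining a change. The medians were 1.49, -2.45 and -3.80. The summed level of the list was lower in normal week 4 replicate 1 (2639 FPKM) than in the other 2 normal samples of that week (5654 and 5752 FPKM), and the PBOO samples of week 4 were at 6332, 8072 and 10483 FPKM. Without normal week 4 replicate 1 the median at week 4 was 1.17, with 1 gene called. Without any 1 of the other week 4 samples it was 1.19 to 1.59, with at most 1 gene called, except that 17 were called without PBOO week 4 replicate 1. Thbs4, a thrombospondin of muscle and tendon matrix, was at 2.65, 2.81 and 1.82 FPKM in the normal and 6.65, 47.3 and 106 FPKM in the PBOO samples of week 4. At week 5 it was at 1.34, 2.17 and 1.67 FPKM in the normal samples and at 0.0430 and 0 FPKM in the PBOO samples. The obstructed samples of week 4 differed widely from each other. The lowest of them was above all normal samples, which the naming rule required. The difference was -7.61 ± 1.17 (adjusted p = 0.000913).

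Mfap4 and Loxl1 belong to the elastic fibre, the first as a microfibril-associated protein and the second as an enzyme that crosslinks elastin. Mfap4 was at 22.4, 27.2 and 30.3 FPKM in the normal and 64.5, 100.2 and 139 FPKM in the PBOO samples of week 4, and at 22.1, 23.9 and 16.2 (normal) and 1.74 and 0.535 FPKM (PBOO) at week 5. Loxl1 was at 15.8, 17.6 and 17.4 (normal) and 40.3, 68.6 and 131 FPKM (PBOO) at week 4 and at 14.4, 20.9 and 13.2 (normal) and 1.44 and 1.74 FPKM (PBOO) at week 5. Neither gene's groups overlapped in either week, and the differences were -6.11 ± 0.56 and -5.31 ± 0.52 (adjusted p = 3.75e-05 and 5.81e-05).

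Among 22 collagen and collagen-processing genes, 5 rose and none fell at week 4 and 17 fell at week 5. The 5 risen genes (Col4a1, Col5a1, Col8a1, Plod1 and Plod2, all but Col8a1 named after their values were seen) all reversed, and Col18a1, a basement membrane collagen, was the 1 gene called up at week 5. The medians were 0.93, -2.28 and -3.15, and the difference was called downward for 19. Col8a1, a short-chain collagen of the subendothelial and muscle matrix, was at 7.88, 10.3 and 9.78 FPKM in the normal and 20.7, 39.1 and 63.4 FPKM in the PBOO samples of week 4, and at 5.35, 3.32 and 6.09 (normal) and 0.392 and 0.237 FPKM (PBOO) at week 5. It had a difference of -5.57 ± 0.56 (adjusted p = 6.75e-05). For the fibrillar collagen gene Col1a2 and the fibril-associated Col14a1 the week 4 effect was not called, and normal week 4 replicate 1 was low. Col1a2 was at 40.6, 138 and 162 FPKM in the normal and 209.96, 155 and 201 FPKM in the PBOO samples of week 4, then at 212, 198 and 184 (normal) and 11.3 and 11.1 FPKM (PBOO) at week 5. Col14a1 was at 8.19, 57.9 and 59.5 (normal) and 76.5, 83.0 and 76.7 FPKM (PBOO) at week 4 and at 7.10, 11.03 and 4.80 (normal) and 0.337 and 0.126 FPKM (PBOO) at week 5. Their week 5 effects were -4.13 ± 0.46 and -4.54 ± 0.73.

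Genes that fell at week 4 and rose at week 5 were fewer, 14 in all, and epithelial and immune genes were among them. With median-ratio scaling Krt15, Cebpd and Bik, described here, were called at week 5 but not at week 4, while Prss30 and Ltb still reversed. Krt15, a keratin of basal epithelial cells, was at 774, 668 and 680.2 FPKM in the normal and 535, 307 and 237.9 FPKM in the PBOO samples of week 4. At week 5 it was at 698, 559 and 645 FPKM in the normal and 3628 and 3497 FPKM in the PBOO samples. The 2 obstructed samples of week 5 were close to each other and above every other sample. The effects were -1.06 ± 0.25 and 2.50 ± 0.28, a difference of 3.55 ± 0.37 (adjusted p = 8.99e-05). Prss30, a serine protease, went from 2.32, 1.74 and 1.73 FPKM in the normal to 0.225, 0.375 and 0.260 FPKM in the PBOO samples of week 4, and from 0.427, 0.628 and 0.609 to 10.2 and 23.4 FPKM at week 5. Its difference of 6.98 ± 0.51 (adjusted p = 8.21e-06) was the highest of the reversing genes the naming rule admits.

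Ltb encodes lymphotoxin beta, a cytokine of lymphocytes. It was at 3.75, 4.31 and 4.32 FPKM in the normal and 1.81, 1.03 and 0.920 FPKM in the PBOO samples of week 4, against 2.92, 4.16 and 4.24 (normal) and 19.3 and 16.1 FPKM (PBOO) at week 5, a difference of 3.91 ± 0.38 (adjusted p = 5.27e-05). Cebpd, a transcription factor of acute inflammation, and Bik, a protein that promotes cell death, had differences of 3.15 ± 0.41 and 2.91 ± 0.50. For Cebpd the PBOO samples were at 13.1, 18.5 and 22.4 FPKM at week 4 and 27.99 and 51.1 FPKM at week 5, with normal samples at 31.1, 47.2 and 39.3 and 9.45, 11.3 and 7.36 FPKM, so the normal samples also differed between the weeks.

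The urothelial list did not move as one. Of 28 tested urothelial genes, none rose and 3 fell at week 4, and 9 rose and 6 fell at week 5. The difference was called upward for 13 and downward for 2. The medians were -0.77, 0.57 and 1.44, and with median-ratio scaling -0.52, 0.53 and 1.16, where none of the 3 falls at week 4 was called. The 2 downward differences were Krt20, a keratin of the umbrella cells that face the urine, and the uroplakin gene Upk2 (named after its values were seen). Krt20 was at 53.2, 41.6 and 40.4 FPKM in the normal and 12.2, 14.4 and 40.6 FPKM in the PBOO samples of week 4, where the groups overlapped, and at 72.7, 37.5 and 90.6 (normal) and 0.940 and 0.383 FPKM (PBOO) at week 5. Krt5, the keratin of basal cells, was at 248, 244 and 215 (normal) and 279, 163 and 108 FPKM (PBOO) at week 4 and at 182, 124 and 97.4 (normal) and 779.7 and 2859 FPKM (PBOO) at week 5. So a keratin of the surface layer was lower and keratins of the basal layer were higher in both obstructed samples of week 5. The differences were -5.26 ± 0.71 for Krt20 and 3.99 ± 0.69 for Krt5 (adjusted p = 0.000447 and 0.00175).

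Of the growth factor genes that rose at week 4, none was called up at week 5. Of 41 tested growth factor genes, 4 rose and none fell at week 4 (Bdnf, Gdnf, Tgfb2 and Inhba, all but Bdnf named after their values were seen), of which 1 was still called with median-ratio scaling. At week 5, 6 rose and 13 fell, and the difference was called upward for 7 and downward for 11, with medians of 0.00, -0.51 and -0.71. The shares over all genes tested were 1.2% rising and 0.859% falling at week 4, and 8.65% and 12.7% at week 5. For the difference they were 15.6% upward and 11.6% downward. The upward share of the list was near this background and its downward share above it. Bdnf and Gdnf, which sustain neurons, lost their rise, Tgfb2 reversed it, and Inhba was unresolved. Bdnf was at 0.261, 0.0470 and 0.0310 FPKM in the normal and 0.988, 3.89 and 8.57 FPKM in the PBOO samples of week 4. At week 5 it was at 0.0680, 0.110 and 0.252 FPKM in the normal and 0.0631 and 0.139 FPKM in the PBOO samples, so the groups overlapped. Outside the PBOO samples of week 4 all values were close to the 0.1 added before the logarithm. This compresses the effect at week 5, and the size of the effect at week 4 depends on that 0.1. The mean of Bdnf over all samples, 1.31 FPKM, rests on the PBOO samples of week 4. The effect was 4.13 ± 0.74 at week 4 (adjusted p = 0.0235) and -0.23 ± 0.83 at week 5 (adjusted p = 0.849), and the difference was -4.37 ± 1.11 (adjusted p = 0.0115). The difference missed the threshold with quantile normalization (adjusted p = 0.0539). Ntrk2, which encodes the receptor of Bdnf, was not called, with 0.965, 1.34 and 1.97 FPKM in the normal and 1.46, 0.999 and 0.946 FPKM in the PBOO samples of week 4, 0.0865, 0.361 and 0.0704 (normal) and 0.0298 and 0.0872 FPKM (PBOO) at week 5, and a difference of -0.38 ± 0.71.

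Fgf2, a fibroblast growth factor that stimulates smooth muscle cells and fibroblasts, gained a fall. It was at 4.07, 3.58 and 3.77 FPKM in the normal and 4.96, 7.64 and 5.97 FPKM in the PBOO samples of week 4, and at 1.08, 1.15 and 1.001 FPKM in the normal and 0.0965 and 0.108 FPKM in the PBOO samples of week 5. The groups did not overlap in either week, above normal at week 4 and below it at week 5, but the week 4 effect of 0.67 ± 0.21 was under 2-fold and not called (adjusted p = 0.0732). The week 5 effect was -2.54 ± 0.24, and the difference was -3.21 ± 0.32 (adjusted p = 6.75e-05). Tgfb3 and the neurotrophin gene Ntf3 gained falls too, with differences of -4.02 ± 0.63 and -3.85 ± 0.55. Among 29 growth factor receptor genes none was called at week 4, 3 rose and 4 fell at week 5, and the difference was called upward for 5 and downward for 5 (medians -0.20, -0.11 and -0.06). Over all genes tested 8.65% rose and 12.7% fell at week 5, and the difference was called upward for 15.6% and downward for 11.6%, so the shares of these receptors were near the background. The falling receptors included Fgfr1, which binds Fgf2, at 39.4, 48.8 and 45.9 FPKM in the normal and 58.7, 66.6 and 52.2 FPKM in the PBOO samples of week 4 and at 35.1, 36.8 and 33.6 (normal) and 8.08 and 6.83 FPKM (PBOO) at week 5. They also included the neurotrophin receptors Ngfr and Ntrk3, with differences of -2.77 ± 0.38 and -2.39 ± 0.67.

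Other genes lost a rise. Grem1, an antagonist of bone morphogenetic proteins, was at 2.74, 0.671 and 0.800 FPKM in the normal and 28.8, 61.7 and 86.6 FPKM in the PBOO samples of week 4, and at 0.0750, 0.826 and 0.197 (normal) and 1.28 and 0.310 FPKM (PBOO) at week 5. All 3 obstructed samples of week 4 were far above the normal samples, and the groups overlapped at week 5. Its effect of 5.42 ± 0.74 at week 4 was followed by 1.05 ± 0.83 at week 5, a difference of -4.37 ± 1.11 (adjusted p = 0.0116). Without PBOO week 5 replicate 2 the difference of Grem1 was -3.49 and missed the threshold (adjusted p = 0.0505). Cilp, a cartilage matrix protein, was at 5.11, 7.77 and 11.2 (normal) and 57.7, 77.4 and 161 FPKM (PBOO) at week 4 but at no more than 1.01 FPKM in any week 5 sample, where the effect was -1.71 ± 0.65 (adjusted p = 0.0645). Npy4r, a receptor of pancreatic polypeptide, had a difference of -4.35 ± 0.91 (adjusted p = 0.00459). At week 5 Npy4r was at 0.570, 0.0510 and 0.413 FPKM in the normal and 0 and 0.0855 FPKM in the PBOO samples. Such levels are close to the 0.1 added before the logarithm, so the week 5 effect is compressed. The mean of Npy4r over all samples, 2.03 FPKM, rests on the PBOO samples of week 4. Of the 33 genes that lost a rise, 3 still had a week 5 effect above 0.

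A further 31 genes lost a fall. Igfbp3, which binds insulin-like growth factors, was at 131, 349 and 375 FPKM in the normal and 108, 21.3 and 18.01 FPKM in the PBOO samples of week 4, against 58.1, 62.1 and 70.5 (normal) and 47.1 and 60.0 FPKM (PBOO) at week 5. The normal samples of week 4 were above those of week 5, and the PBOO samples of week 5 overlapped normal. The difference was 2.64 ± 0.91 (adjusted p = 0.0414), and it missed the threshold under most alternatives. Artn, which encodes artemin, a factor that sustains sensory neurons, was at 16.1, 11.4 and 14.2 (normal) and 8.08, 5.02 and 3.91 FPKM (PBOO) at week 4 and at 3.68, 3.35 and 2.43 (normal) and 5.80 and 6.05 FPKM (PBOO) at week 5, where it was above normal but under 2-fold. Zfp36, which speeds the decay of inflammatory mRNAs, was at 113, 144 and 157 (normal) and 59.0, 58.3 and 49.2 FPKM (PBOO) at week 4 and at 106, 146 and 67.3 (normal) and 179 and 193 FPKM (PBOO) at week 5. The differences of Artn and Zfp36 were 2.24 ± 0.39 and 2.18 ± 0.36 (adjusted p = 0.0019 and 0.00139). Fcrla, a B cell gene, Guca2a, the gut hormone guanylin, and Sostdc1, an antagonist of Wnt and bone morphogenetic proteins, lost falls with differences of 4.77 ± 1.07, 3.56 ± 0.81 and 2.34 ± 0.71. With median-ratio scaling Guca2a, Artn and Zfp36 still lost a fall, and Igfbp3, Fcrla and Sostdc1 did not.

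Few genes kept their change, and all but 3 of the 39 were down. Of the 39, 19 had a called difference, each with the larger effect at week 5, and 20 had none. Asic4, an acid-sensing ion channel subunit found in nerve tissue, was at 9.20, 7.36 and 5.40 FPKM in the normal and 0.310, 0.855 and 0.101 FPKM in the PBOO samples of week 4, and at 3.94, 3.62 and 2.97 (normal) and 0.0593 and 0.163 FPKM (PBOO) at week 5. Its effects were -4.08 ± 0.49 and -4.13 ± 0.55, and the difference of -0.05 ± 0.74 was not called (adjusted p = 0.962). The PBOO values of Asic4 at week 5 were close to the 0.1 added before the logarithm. This limits the size of the week 5 fall, so the near-equal effects depend in part on that 0.1. The glutathione transferase gene Gstm7 also kept a fall, with effects of -2.44 ± 0.38 and -2.23 ± 0.43. Its normal level was 17.8, 12.2 and 13.5 FPKM at week 4 but 3.07, 3.74 and 2.25 FPKM at week 5. Reads of Gstm7 may be shared with its close relatives. Dlk1, a surface protein of stromal precursor cells, and Krt12, a keratin, had effects of -2.22 ± 0.56 and -2.21 ± 0.63, and of -2.44 ± 0.63 and -2.41 ± 0.70. In the PBOO samples of week 5 Dlk1 was at 0.384 and 0 FPKM and Krt12 at 0.460 and 0.0346 FPKM. These low levels limit their week 5 falls too. Ngb, neuroglobin, an oxygen-binding protein of nerve cells, fell further at week 5. It was at 43.2, 32.9 and 41.4 FPKM in the normal and 13.5, 14.1 and 2.79 FPKM in the PBOO samples of week 4 and at 30.3, 34.4 and 27.2 (normal) and 1.11 and 0.329 FPKM (PBOO) at week 5, a difference of -3.17 ± 0.84 (adjusted p = 0.0142). With each of 3 other scalings Asic4 and Gstm7 still kept their fall, and Dlk1, Krt12 and Ngb did not keep theirs.

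The 3 genes that stayed up were Lpp, MGC105649 and Ribc2. Lpp kept its rise under the other scalings tried, MGC105649 was a gained rise with equal column sums, and Ribc2 was unresolved with median-ratio scaling, quantile normalization and equal column sums. Lpp, a LIM protein of cell adhesions, was at 21.8, 24.1 and 23.2 FPKM in the normal and 57.5, 52.8 and 36.3 FPKM in the PBOO samples of week 4, but at 0.0895, 0.130 and 0.115 FPKM in the normal and 5.08 and 3.85 FPKM in the PBOO samples of week 5. Its level in normal bladders thus differed far more between the weeks than between normal and PBOO within a week. MGC105649 was at 2.82, 3.62 and 3.81 (normal) and 5.98, 8.19 and 9.14 FPKM (PBOO) at week 4 and at 1.61, 3.06 and 1.36 (normal) and 85.0 and 143 FPKM (PBOO) at week 5, a difference of 4.64 ± 0.46 (adjusted p = 6.4e-05). Ribc2, a gene of ciliary microtubules, was at 0.248, 0.101 and 0.0417 FPKM in the normal samples of week 4 and 0.171, 0 and 0.146 FPKM in those of week 5, and at 0.461, 2.78 and 2.02 FPKM in the PBOO samples of week 4 and 1.99 and 3.18 FPKM in those of week 5.

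Epithelial defence genes were among the largest gained rises. Of 17 tested genes of this list, none rose and 1 fell at week 4 (Hp, haptoglobin, named after its values were seen), and 12 rose and none fell at week 5. The difference was called upward for 11, and the medians were -0.33, 3.76 and 4.63. Duox2, an oxidase that makes hydrogen peroxide at epithelial surfaces, and Duoxa2, the factor it needs to mature, rose together. Duoxa2 was at 0.650, 1.07 and 1.54 FPKM in the normal and 5.42, 0.890 and 0.405 FPKM in the PBOO samples of week 4, where the groups overlapped, and at 0.456, 0.598 and 0.506 (normal) and 383 and 328 FPKM (PBOO) at week 5. Duox2 was at 0.663, 0.815 and 0.714 (normal) and 2.87, 0.502 and 0.177 FPKM (PBOO) at week 4 and at 1.06, 0.843 and 1.17 (normal) and 246 and 157 FPKM (PBOO) at week 5. PBOO week 4 replicate 1 was the highest of its group for both genes, though far under the obstructed samples of week 5. The differences between weeks were 8.85 ± 1.04 and 7.53 ± 1.00045 (adjusted p = 0.000195 and 0.000412).

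S100a9, a subunit of the antimicrobial protein calprotectin and abundant in neutrophils, differed between the 2 obstructed samples of week 5. It was at 8.87 and 287 FPKM in these and at 1.73, 0.740 and 0.589 FPKM in the normal samples, with 1.42, 53.1 and 51.3 (normal) and 3.44, 8.28 and 16.3 FPKM (PBOO) in the normal and PBOO samples of week 4. The difference of 6.67 ± 2.22 (adjusted p = 0.0362) fell to 4.17 without PBOO week 5 replicate 2 (adjusted p = 0.155), the sample with the high neutrophil sum, and missed the threshold without most other single samples and with median-ratio scaling (adjusted p = 0.051). Clca2, a membrane protein of epithelial cells that regulates chloride channels, was at 83.5 and 82.0 FPKM in the PBOO and 0.691, 0.108 and 0.601 FPKM in the normal samples of week 5, a difference between weeks of 7.65 ± 1.06.

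Matrix protease genes moved in both directions at week 5. Among 23 matrix protease and inhibitor genes, 1 rose at week 4 (Timp1, named after its values were seen), 10 rose and 6 fell at week 5, and the difference was called upward for 9 and downward for 5 (medians 0.53, 0.94 and -0.25). Mmp7, matrilysin, an epithelial matrix protease, was at 0.0939, 0.149 and 1.03 FPKM in the normal and 2.83, 0.0929 and 0.221 FPKM in the PBOO samples of week 4, and at 0.870, 0.415 and 0.688 (normal) and 285 and 730.2 FPKM (PBOO) at week 5. Mmp13, a collagenase, was at 0.331, 1.15 and 1.07 (normal) and 1.82, 1.97 and 0.414 FPKM (PBOO) at week 4 and at 0.460, 0.288 and 0.0346 (normal) and 20.1 and 21.7 FPKM (PBOO) at week 5. The differences were 8.71 ± 1.45 and 5.52 ± 1.01 (adjusted p = 0.00145 and 0.00241). Mmp9, a gelatinase that neutrophils carry, was at 1.83 and 36.7 FPKM in the 2 PBOO samples of week 5 and at no more than 0.323 FPKM in any other sample. Its mean over all samples, 3.56 FPKM, rests on these 2 PBOO samples.

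More chemokine and NF-kB genes rose than fell at week 5. Of 26 tested chemokine genes none was called at week 4, 13 rose and 3 fell at week 5, and the difference was called upward for 12 and downward for 1 (Cxcl14, an epithelial chemokine, named after its values were seen), with medians of -0.36, 2.16 and 2.17. Of 31 genes of interleukin-1, TNF and NF-kB feedback none was called at week 4, 19 rose and 2 fell at week 5, and the difference was called upward for 17 and downward for 2 (medians -0.06, 1.47 and 1.43). Cxcl6, which attracts neutrophils, was at 0.315, 0.279 and 0.860 FPKM in the normal and 1.74, 0.0820 and 0 FPKM in the PBOO samples of week 4, and at 0.0346, 0.169 and 0.0192 (normal) and 19.0 and 29.4 FPKM (PBOO) at week 5. Cxcl1, with the same target, was at 1.002, 2.66 and 2.01 (normal) and 1.16, 0.417 and 1.60 FPKM (PBOO) at week 4 and at 0.257, 0.115 and 0.300 (normal) and 7.10 and 14.9 FPKM (PBOO) at week 5. In both genes the 2 obstructed samples of week 5 were above all other samples. Separation from the normal samples of week 5 was a condition for naming them, so it adds no support. The mean of Cxcl6 over all samples, 4.72 FPKM, rests on the 2 obstructed samples of week 5. Cxcl6 and Cxcl1 are close relatives and may share reads. The differences were 7.91 ± 1.39 and 5.90 ± 0.78 (adjusted p = 0.0019 and 0.000409), and Ccl22, which attracts regulatory T cells, had a difference of 5.24 ± 0.73. The mean of Ccl22 over all samples, 1.70 FPKM, rests on the PBOO samples of week 5 too.

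The cytokines Il1a and Il1b were both higher at week 5. Il1a was at 0.181, 0.142 and 0.715 FPKM in the normal and 2.43, 0.134 and 0 FPKM in the PBOO samples of week 4, and at 0, 0.156 and 0.123 (normal) and 33.7 and 30.9 FPKM (PBOO) at week 5. The mean of Il1a over all samples, 6.22 FPKM, rests on the PBOO samples of week 5. Il1b was at 9.06 and 36.0 FPKM in the PBOO and 1.17, 2.56 and 0.416 FPKM in the normal samples of week 5, while its normal samples of week 4, at 1.33, 5.49 and 3.66 FPKM, overlapped its PBOO samples, at 2.16, 1.13 and 0.909 FPKM. Birc3, an inhibitor of cell death that NF-kB induces, was at 4.14, 4.83 and 5.87 (normal) and 2.93, 3.06 and 2.23 FPKM (PBOO) at week 4 and at 1.29, 1.11 and 1.09 (normal) and 24.8 and 26.3 FPKM (PBOO) at week 5. It lay below normal at week 4, under 2-fold, and above it at week 5, without overlap. The differences were 7.47 ± 1.52, 5.06 ± 1.08 and 5.17 ± 0.28.

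NF-kB sites, searched on both strands, were found in the promoters of 75 of 584 matched genes that gained a rise (12.8%), of 85 of 747 that gained a fall (11.4%), and of 9.83% of the 8528 tested genes and 7.58% of all 24206 promoters. They were also in 9 of 63 genes that rose and then fell (14.3%) and 6 of 22 that kept a fall (27.3%). Lower counts were 1 of 25 for lost rises, 0 of 22 for lost falls and 1 of 7 for genes that fell and then rose. The sites were thus not particular to gained rises. AP-1 sites (TGANTCA, both strands) were in 9.76% of the genes that gained a rise, 5.49% of those that gained a fall, 5.11% of tested genes and 7.33% of all promoters. Of the named genes with a gained rise, Cxcl6, Cxcl1, Ubd and Socs3 held the NF-kB site. The window of Socs3 is not shown. Windows of the 3 with the largest differences are shown, with the site, or 2 overlapping sites, in capitals. They lie at chr14:17596470-17596530, chr14:17479370-17479430 and chr20:1392686-1392725 (GRCr8) in the order shown, all on the minus strand, and read 5′ to 3′ toward the gene.
Cxcl6: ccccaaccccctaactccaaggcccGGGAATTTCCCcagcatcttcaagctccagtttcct
Cxcl1: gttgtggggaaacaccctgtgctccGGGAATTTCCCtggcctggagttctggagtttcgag
Ubd: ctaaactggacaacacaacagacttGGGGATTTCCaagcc
The capitals of Cxcl6 and Cxcl1 are the same 11 letters, 88 and 84 bases before the start. Ubd encodes a ubiquitin-like protein that inflammatory cytokines induce. It was at 9.64, 14.3 and 11.2 FPKM in the normal and 26.1, 4.71 and 1.55 FPKM in the PBOO samples of week 4, and at 2.98, 0.701 and 3.23 (normal) and 252 and 156 FPKM (PBOO) at week 5, a difference of 7.60 ± 1.29 (adjusted p = 0.00158).

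Interferon-response genes rose at week 5 from a week 4 effect that lay below 0. Of 31 tested genes none was called at week 4, 18 rose and none fell at week 5, and the difference was called upward for 22 and downward for none. The medians were -0.98, 2.03 and 2.71, and with median-ratio scaling -0.74, 2.01 and 2.43. Normal week 4 replicate 2 was high in these genes. Ifit3, which is induced by interferon, was at 1.95, 26.0 and 4.41 FPKM in the normal and 1.97, 2.16 and 1.61 FPKM in the PBOO samples of week 4, and at 1.24, 0.798 and 1.01 (normal) and 13.4 and 24.1 FPKM (PBOO) at week 5. Rsad2, viperin, an antiviral enzyme, was at 1.02, 7.43 and 1.18 (normal) and 0.736, 0.513 and 0.284 FPKM (PBOO) at week 4 and at 0.197, 0.237 and 0.482 (normal) and 4.65 and 3.73 FPKM (PBOO) at week 5. Oas1b, of the family that senses double-stranded RNA and has close relatives that may share its reads, was at 3.48, 22.7 and 3.24 (normal) and 1.99, 2.38 and 1.35 FPKM (PBOO) at week 4 and at 1.01, 0.970 and 2.40 (normal) and 11.7 and 9.61 FPKM (PBOO) at week 5. At week 5 both obstructed samples were above all normal samples of that week for the 3 genes, and only the single high normal sample of week 4 reached them. The differences were 5.67 ± 1.08, 5.39 ± 0.99 and 4.63 ± 0.98 (adjusted p = 0.00296, 0.00247 and 0.00503), and 4.64, 4.50 and 3.72 without that sample (adjusted p = 0.000397, 0.00112 and 0.00148).

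An interferon element, read as a pair of GAAA repeats with any 2 bases between them on either strand, was in the promoters of 39 of 584 genes that gained a rise (6.68%) and of 11 of 747 that gained a fall (1.47%). It was in 2.99% of the 8528 tested genes and 3.74% of all 24206 promoters. Among the named genes with a gained rise, the matrix protease gene Mmp13 held the element too, and its window is not shown. A match to the other strand reads TTTC. The windows of 4 other genes with called differences are shown, with the element or 2 overlapping elements in capitals. They lie at chr1:241527257-241527316 (Ifit3) and chr20:2666257-2666316 (RT1-N3) on the plus strand and at chr6:48788233-48788292 (Rsad2) and chr12:41395871-41395936 (Oas1b) on the minus strand of GRCr8, and read 5′ to 3′ toward the gene.
Ifit3: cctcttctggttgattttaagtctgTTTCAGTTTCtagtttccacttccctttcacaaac
Rsad2: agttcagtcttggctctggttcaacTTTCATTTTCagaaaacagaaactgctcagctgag
Oas1b: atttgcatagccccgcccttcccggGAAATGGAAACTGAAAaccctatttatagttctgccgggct
RT1-N3: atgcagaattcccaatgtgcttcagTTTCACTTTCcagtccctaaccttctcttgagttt
The element began 44, 147, 59 and 207 bases before the start in these genes, in the order shown.

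Antigen-presentation genes moved in the same direction. Of 25 tested genes, none rose and 1 fell at week 4 (Cd86, a costimulatory protein, named after its values were seen), and 15 rose and none fell at week 5. The difference was called upward for 14, with medians of -0.53, 1.56 and 1.71. Psmb9, a subunit of the immunoproteasome that cuts antigens, was at 28.1, 46.0 and 39.2 FPKM in the normal and 25.4, 17.5 and 14.9 FPKM in the PBOO samples of week 4, and at 13.3, 14.3 and 16.5 (normal) and 44.1 and 149 FPKM (PBOO) at week 5. RT1-N3 and RT1-S3 are rat class I genes of the major histocompatibility complex, whose reads may be shared with near-identical relatives. RT1-N3 was at 6.48, 15.03 and 14.4 (normal) and 8.30, 5.84 and 8.60 FPKM (PBOO) at week 4 and at 4.60, 5.91 and 4.48 (normal) and 19.2 and 42.5 FPKM (PBOO) at week 5. The differences of Psmb9 and RT1-N3 were 3.44 ± 0.58 and 3.08 ± 0.54 (adjusted p = 0.0015 and 0.00191). For RT1-S3 only the difference was called, at 3.02 ± 0.92, with normal week 4 replicate 2 again high (16.0, 127 and 28.6 FPKM in the normal samples of week 4).

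Falls gained at week 5 went beyond muscle and matrix. Of 20 tested nerve and glia genes, 1 fell and none rose at week 4, while 12 fell and none rose at week 5. The 1 was Syt1, a synaptic vesicle protein, named after its values were seen, which kept its fall. The difference was called upward for 1 (Uchl1, named after its values were seen) and downward for 10, with medians of -0.83, -2.28 and -1.76. The summed level of the list was 868 to 903 FPKM in the normal and 1342 and 747 FPKM in the PBOO samples of week 5. Of the 2 PBOO sums, 1 lay above and 1 below all normal sums of week 5, so the summed level gives no direction. The neurofilament genes Nefl and Nefm and the neuronal growth gene Stmn2 fell at week 5. Nefl was at 13.8, 11.5 and 17.9 FPKM in the normal and 4.28, 8.85 and 1.81 FPKM in the PBOO samples of week 4, and at 22.5, 38.7 and 15.8 (normal) and 0.495 and 0.0284 FPKM (PBOO) at week 5. At week 4 its groups did not overlap either, though the effect of -1.76 ± 0.64 was not called (adjusted p = 0.0934). Nefm and Stmn2 were at 0.423 and 0 FPKM and 0.194 and 0 FPKM in the PBOO samples of week 5. The differences of Nefl, Nefm and Stmn2 were -4.68 ± 0.95, -5.87 ± 1.03 and -3.58 ± 0.96. Rbfox3, a splicing factor best known as a neuron marker, was at 12.4, 18.3 and 19.4 (normal) and 19.9, 34.3 and 34.5 FPKM (PBOO) at week 4 and at 17.5, 16.6 and 21.8 (normal) and 0.308 and 0.153 FPKM (PBOO) at week 5, a difference of -6.66 ± 0.41 (adjusted p = 3.48e-06). Igfbp6, another binder of insulin-like growth factors, and Clec11a, a secreted lectin, had differences of -6.10 ± 0.55 and -5.98 ± 0.74, with normal week 4 replicate 1 again the lowest of its group in both (89.5, 237 and 289 FPKM and 7.88, 31.0 and 42.1 FPKM).

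Among 29 immediate early genes, 2 fell at week 4 (Zfp36 and Junb, the latter named after its values were seen) and 3 rose and 1 fell at week 5, and the difference was called upward for 7 and downward for 1. The medians were -0.38, -0.20 and 0.28, the last of which was -0.01 with median-ratio scaling. The background over all genes tested was 8.65% rising and 12.7% falling at week 5, and 15.6% upward and 11.6% downward for the difference. The 1 downward gene was Arc, at 27.0, 58.4 and 3.11 FPKM in the normal and 0.357 and 0.181 FPKM in the PBOO samples of week 5, with wide spread among the normal samples. Socs3, a brake on cytokine signalling, was at 29.5, 8.44 and 11.8 (normal) and 4.81, 5.55 and 10.4 FPKM (PBOO) at week 4 and at 5.89, 5.601 and 6.61 (normal) and 25.6 and 64.7 FPKM (PBOO) at week 5, a difference of 3.86 ± 0.71 (adjusted p = 0.00254).

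Cell cycle genes had a median effect of 1.17 at week 4 and 0.89 at week 5, but few passed the test. Of 45 tested genes, 1 rose at week 4, 7 rose and 1 fell at week 5, and the difference was called upward for 4 and downward for 2 (median -0.05). Across all genes tested 1.2% rose at week 4, and 8.65% rose and 12.7% fell at week 5. There the difference was upward for 15.6% and downward for 11.6%, above the list's share in each direction. Prc1, which bundles the microtubules of the dividing spindle, was the 1 that rose at week 4, and it lost the rise: it was at 13.1, 8.44 and 8.88 FPKM in the normal and 31.5, 56.6 and 113 FPKM in the PBOO samples of week 4 and at 5.73, 6.27 and 4.14 (normal) and 1.61 and 12.5 FPKM (PBOO) at week 5 (difference -2.76 ± 0.97, adjusted p = 0.0442). With median-ratio scaling and with equal column sums its week 4 rise was not called. Without PBOO week 5 replicate 1 the difference of Prc1 was -1.32 (adjusted p = 0.155), and it missed the threshold without most other single samples too. The other 2 genes named by the rule were Ccnd2, a cyclin, and Cdc6, a replication factor, with differences of -2.64 ± 0.25 and 2.06 ± 0.45. Mki67, the proliferation marker, was not called in either week, and its 2 obstructed samples of week 5 were far apart (0.277 and 8.71 FPKM).

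Genes of hypoxia and glycolysis moved little as a list (29 tested, none called at week 4, 3 up and 6 down at week 5, difference upward for 1 and downward for 7, medians 0.37, -0.08 and -0.36). Pfkp, the platelet form of phosphofructokinase, was at 118, 142 and 125 FPKM in the normal and 159, 272 and 312 FPKM in the PBOO samples of week 4 and at 69.0, 105 and 118 (normal) and 16.6 and 22.6 FPKM (PBOO) at week 5. The mitophagy gene Bnip3 and the neuronal enolase gene Eno2 had differences of -2.95 ± 0.46 and -2.69 ± 0.36. Of 31 cell death genes none was called at week 4, and 6 rose and none fell at week 5. The difference was called upward for 8 (medians -0.20, 0.47 and 0.63). With median-ratio scaling and with quantile normalization it was upward for 4, and with equal column sums for 6. Over all genes tested 8.65% rose and 12.7% fell at week 5, and the difference was upward for 15.6% and downward for 11.6%. Casp8 and Casp6, caspases that start and carry out apoptosis, and Tnfsf10, a death ligand, had differences of 1.93 ± 0.21, 1.70 ± 0.32 and 2.72 ± 0.63. Casp8 was at 10.9, 9.18 and 11.1 (normal) and 7.40, 7.09 and 6.27 FPKM (PBOO) at week 4 and at 7.12, 7.19 and 6.02 (normal) and 19.1 and 15.9 FPKM (PBOO) at week 5, without overlap in either week.

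Cytosolic ribosomal protein genes mostly had a called difference without a called effect in either week. Of 76 tested, 1 fell at week 4 (Rplp2, named after its values were seen), none was called at week 5, and the difference was called upward for 55, of which 54 were called in the difference alone. With median-ratio scaling 13 were called upward, with quantile normalization 9 and with equal column sums 25. The medians were -0.79, 0.34 and 1.07. The summed level of the 77 listed genes was 108977 to 115729 FPKM in the normal and 57394 to 79215 FPKM in the PBOO samples of week 4, and 51877 to 57155 and 59886 to 76752 FPKM at week 5. The normal samples of week 4 thus all had higher sums than any other sample. Rps28 was at 1159, 1073 and 1079.6 (normal) and 759.6, 565 and 445 FPKM (PBOO) at week 4 and at 494, 495 and 455 (normal) and 636 and 971 FPKM (PBOO) at week 5, and Rps28 and Rps9 had differences of 1.65 ± 0.31 and 1.86 ± 0.59. Ribosomal protein genes have many near-identical pseudogenes, and their values are uncertain for that reason. Of 54 mitochondrial respiratory chain genes none was called at week 4, and Cox5a, a subunit of the terminal oxidase, was the 1 called at week 5 and in the difference (1.44 ± 0.23; medians of the list -0.29, 0.02 and 0.30).

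**Figure D5:**
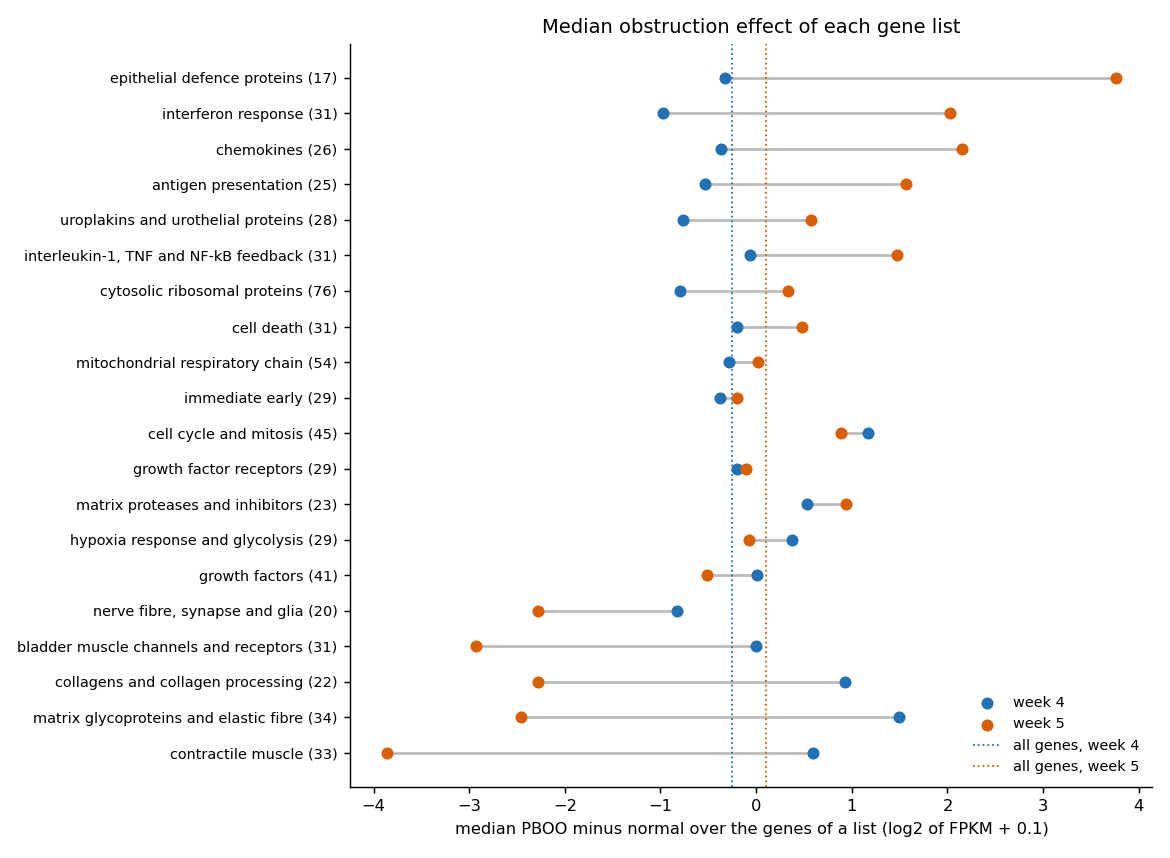
Median effect of PBOO at week 4 (blue) and week 5 (orange) over the tested genes of each list (number in brackets), as log2(FPKM + 0.1), ordered by the median difference between weeks; dotted lines give the medians of all 11296 genes, -0.25 and 0.10. The contractile, collagen and matrix glycoprotein lists lie above all genes at week 4 and far below at week 5, and the defence, interferon, chemokine and antigen-presentation lists lie above all genes at week 5.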

How the data were processed

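Total RNA of bladder tissue was sequenced in 11 samples. According to the study's methods, TruSeq libraries were read as pairs on a HiSeq4000, trimmed with SeqPrep and Sickle, aligned with HISAT2 (v2.0.4) and assembled with StringTie (v1.3.1). The deposited table holds FPKM per gene symbol and sample, which the authors obtained with featureCounts, testing genes with DESeq2. The submitters' processing notes also list limma, bcl2fastq 2.0 and the mouse build mm10, although the samples are rat and 36 symbols start with RT1, the rat histocompatibility complex. Which genome, annotation and strand setting gave the values is not given in the sources used here. The table has no counts, so depth and counting error are unknown.

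Samples were grouped by the labelled disease state and week. Values were taken as log2(FPKM + 0.1), and limma 3.58.1 (R 4.3.3) was fitted to the 4 group means of all 11 samples, with a trended prior and Benjamini-Hochberg adjustment over the 11296 genes tested. The fit was tested on simulated data. With 3, 3, 3 and 2 samples, p-values measure the spread between these samples. All p-values are two-sided, and errors of effects are standard errors.

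Named genes had a mean of at least 1 FPKM, no group wholly at 0 and groups that did not overlap in the weeks called. For genes high in a single group, such as Bdnf, Npy4r, Cxcl6, Il1a, Ccl22 and Mmp9, that mean rests on this group. From each class and direction the 5 largest were named, and from each of 20 pathway lists the 3 largest called differences, beside Bdnf, Fgf2, Ntrk2 and Mki67, which the study names. Symbols without a gene name were passed over, and some genes the rule names are not reported here. The members, the pathway lists and the 13 marker lists were chosen with earlier results of these data known. Promoters, from 250 bases before to 50 after the start, came from RefSeq (GRCr8), and 8528 tested genes matched a promoter with a single listed start. Alternatives covered scaling, pseudocount, filters, variance settings, threshold, a replicate block and leaving out each sample.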

Additional observations from a re-analysis of the deposited data

Results flagged for a closer look

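The test of the difference between the weekly effects, over all 11 samples, was passed by 3073 genes. The genes named in the report that passed it are given here with their log2 difference, the effect at week 5 minus the effect at week 4. Among genes that rose and then fell, it was -7.76 for Kcnf1, -7.61 for Thbs4, -7.35 for Actc1, -6.98 for Synm, -6.78 for Nptx2, -5.32 for Cacna2d1, -5.26 for Casq2 and -5.57 for Col8a1. It was further -6.11 for Mfap4 and -5.31 for Loxl1. Among genes that fell and then rose, it was 6.98 for Prss30, 3.91 for Ltb, 3.55 for Krt15, 3.15 for Cebpd and 2.91 for Bik. Where a rise was lost, it was -5.24 for Cilp, -4.37 for Grem1, -4.37 for Bdnf, -4.35 for Npy4r and -2.76 for Prc1. Where a fall was lost, it was 4.77 for Fcrla, 3.56 for Guca2a, 2.64 for Igfbp3, 2.34 for Sostdc1, 2.24 for Artn and 2.18 for Zfp36. Where a rise was kept, it was 4.64 for MGC105649 and 3.37 for Lpp. Where a fall was kept, it was -3.17 for Ngb. Among genes with a rise gained at week 5, it was 8.85 for Duoxa2, 8.71 for Mmp7, 7.91 for Cxcl6, 7.65 for Clca2, 7.60 for Ubd, 5.64 for Mmp9, 5.52 for Mmp13 and 3.99 for Krt5. It was further 5.90 for Cxcl1, 5.24 for Ccl22, 7.47 for Il1a, 5.17 for Birc3, 5.06 for Il1b, 5.67 for Ifit3, 5.39 for Rsad2 and 4.63 for Oas1b. It was further 3.44 for Psmb9, 3.08 for RT1-N3, 7.53 for Duox2, 6.67 for S100a9, 3.86 for Socs3, 2.06 for Cdc6, 2.72 for Tnfsf10 and 1.93 for Casp8. It was further 1.70 for Casp6 and 1.44 for Cox5a. Among genes with a fall gained at week 5, it was -6.69 for Synpo2, -6.66 for Rbfox3, -6.10 for Igfbp6, -5.98 for Clec11a, -5.91 for Col14a1, -4.96 for P2rx1, -5.08 for Col1a2 and -5.26 for Krt20. It was further -4.02 for Tgfb3, -3.85 for Ntf3, -2.77 for Ngfr, -2.63 for Fgfr1, -2.39 for Ntrk3, -4.90 for Arc, -2.64 for Ccnd2 and -3.18 for Pfkp. It was further -2.95 for Bnip3, -2.69 for Eno2, -5.87 for Nefm, -4.68 for Nefl, -3.58 for Stmn2 and -3.21 for Fgf2. Where neither weekly effect was called, it was 3.02 for RT1-S3, 1.86 for Rps9 and 1.65 for Rps28. Values of each sample, the errors and what each gene is stand in the report. Which genes lost the call under an alternative is given under the processing.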

How the results depend on the processing

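The number of called differences (3073) and of gained changes (1826) stayed within 1.5 times under every alternative tried, at 2681 to 3458 and 1615 to 2128 without any 1 sample. The classes that need a call at week 4 moved more (39 keeping, 64 losing and 104 reversing genes as reported). At an unadjusted p they held 106, 122 and 191 genes, and with each week fitted on its own 9, 20 and 24. Keeping genes numbered 13 with equal column sums and with median-ratio scaling and 18 with quantile normalization, and losing genes 27 with equal column sums and 30 with median-ratio scaling. Without any 1 sample there were 0 to 84 keeping, 0 to 289 losing and 0 to 261 reversing genes, with the highest numbers without PBOO week 4 replicate 1. At an unadjusted p, without any 1 sample, there were 71 to 159, 89 to 333 and 122 to 339, beside 3070 to 3778 differences and 1735 to 2313 gained changes. Same-numbered samples of a week correlated at 0.131, -0.00546 and 0.196 at week 4 and at -0.0397 and 0.149 at week 5, so they share only a number. With the replicate block 1 gene kept, 3 lost and 11 reversed its change, 15 genes were called at week 4, and 2826 differences and 1775 gained changes were called. At an unadjusted p under the block 101 of the 104 reversing genes still reversed, although these genes were picked in the same samples at a stricter threshold. The causes were not tested. Requiring a value above 0 in all 11 samples, an alternative chosen after seeing the data, gave 2962 differences and 38, 59, 107 and 1721 keeping, losing, reversing and gaining genes; the leave-one-out counts at an unadjusted p were also chosen then. Of the named genes with a called difference, 11 missed it under at least 1 alternative: Bdnf, Grem1, Igfbp3, Ngb, Ntrk3, Prc1, Rps9, RT1-S3, S100a9, Sostdc1 and Stmn2. With the replicate block the differences of Bdnf and Grem1 were -4.06 and -4.52 (adjusted p = 0.0608 and 0.0513). No called difference of a named gene changed direction. In quantile-normalized data the week 5 effects of Bdnf and Ntrk2 changed sign, and those of Duox2, Cdc6 and Clca2 at week 4 changed sign under some scaling. Depth could not be assessed, and 2 PBOO samples at week 5 limit the precision of that group.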
